A study of Homo sapiens with 24 samples.

Results

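The 10 genes described here build the mitotic spindle and cut the dividing cell apart. They are the kinesins KIF11, KIF2C, KIF4A, KIF20A, KIF20B and KIF23, the microtubule cross-linker PRC1, the RhoA regulators RACGAP1 and ECT2, and the contractile ring scaffold ANLN. They were found by gene symbol, and all 10 had 1 row each among the 28307 genes of the deposited table. They were chosen by function and not by a measured value, although earlier results of these data were known. RNA sequencing of sorted cells covered SUM159, a breast cancer line, and SW620, a colon cancer line. Adherent cultures of each line were held for 30 hours under nifuroxazide (NIF), an antibiotic, or under the vehicle DMSO. They were then sorted by aldehyde dehydrogenase (ALDH) activity into ALDHbr cells, the fraction the study treats as cancer stem cells (CSCs), and ALDHneg cells. The 8 groups are thus SUM159 ALDHbr DMSO, SUM159 ALDHbr NIF, SUM159 ALDHneg DMSO, SUM159 ALDHneg NIF and the same 4 of SW620, each with 3 biological replicates, 24 libraries in all.

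The labels gave the stock concentration of NIF and not the concentration on the cells. Each tissue was represented by 1 line, so that line, tissue and any batch between the lines cannot be told apart. Library totals ran from 30253187 to 43127948 counts, and the 10 genes had between 1232 and 18338 counts in every library, so that all 10 passed the filter on low counts. Levels are given as CPM, the share of a library’s counts scaled to a common total, after TMM normalisation, which corrects each library's total for its composition. A summed list of 10 colon epithelial markers stood at 0.198 to 8.17 CPM in the SUM159 libraries and at 2060 to 2725 CPM in those of SW620. The mean level of ALDH1A1, an aldehyde dehydrogenase read by the sorting assay, was 127 ± 25.9 CPM in SUM159 ALDHbr and 0.450 ± 0.0554 CPM in SUM159 ALDHneg cells under DMSO (SD, n = 3). In SW620 it was 1397 ± 50.3 CPM in ALDHbr and 956 ± 18.3 CPM in ALDHneg cells, so that the ALDHneg gate of this line held cells rich in the transcript. The level of ALDH1A3, another aldehyde dehydrogenase, was 146 ± 6.17 CPM in SW620 ALDHbr and 188 ± 4.70 CPM in SW620 ALDHneg cells under DMSO (SD, n = 3). Replicate 2 of SW620 ALDHbr DMSO stood apart from the other 2 libraries of its group. Without it, the comparison of ALDHbr with ALDHneg cells under DMSO in SW620 called 2861 genes lower and 2626 higher, against 817 and 760 with it.

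Mitotic kinesins are motors that walk along, slide or take apart microtubules. In anaphase the antiparallel microtubules between the separating chromosomes are bundled by PRC1 into the central spindle. There the centralspindlin complex of KIF23 and RACGAP1 recruits ECT2, which switches on the small GTPase RhoA beneath the membrane. RhoA drives the actin and myosin ring that ANLN anchors, and the bridge that remains is cut by the ESCRT machinery at the midbody. When these steps fail, a cell leaves mitosis with a duplicated genome. Transcripts of such genes peak late in the cell cycle, and many of their promoters carry a cell cycle genes homology region (CHR), to which MuvB complexes with B-MYB, FOXM1 or the DREAM proteins bind, often downstream of CCAAT boxes bound by NF-Y.

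The genes lie apart in the genome. In RefSeq on GRCh38.p14, KIF2C is at chr1:44739837-44767767, ECT2 at chr3:172750726-172829265, KIF20A at chr5:138179112-138187723 and ANLN at chr7:36389862-36453791. KIF20B at chr10:89701590-89774934 and KIF11 at chr10:92593130-92655395 share a chromosome, as do KIF23 at chr15:69414349-69448427 and PRC1 at chr15:90966040-90994535. RACGAP1 is at chr12:49989162-50033440 and KIF4A at chrX:70290104-70420886. KIF4B, an intronless near-copy of KIF4A, had 1 to 14 counts per library against at least 2148 for KIF4A. PRC1-AS1, transcribed from the strand opposite PRC1, had 0 to 16 counts against at least 6635 for PRC1. How reads shared by such pairs were assigned was not given in the sources used here.

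The promoters are shown because their letters are a feature that the choice of genes did not use. RefSeq windows of 250 bases before and 50 bases after the start were matched for 9 of the 10 genes, with 2 starts for ECT2. The 120 bases before the start are printed 5′ to 3′ on the transcribed strand for the 7 genes with a whole CHR in that stretch, with CHR letters (TTTGAA or TTTAAA) and CCAAT boxes, on either strand, in capitals.
KIF11, chr10:92593010-92593129 (plus strand): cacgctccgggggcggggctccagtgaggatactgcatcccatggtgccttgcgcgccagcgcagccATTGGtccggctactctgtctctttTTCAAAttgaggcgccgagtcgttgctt
KIF4A, chrX:70289984-70290103 (plus strand): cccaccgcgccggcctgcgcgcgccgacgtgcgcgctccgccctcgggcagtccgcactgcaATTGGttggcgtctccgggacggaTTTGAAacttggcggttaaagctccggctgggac
PRC1, chr15:90994536-90994655 (minus strand): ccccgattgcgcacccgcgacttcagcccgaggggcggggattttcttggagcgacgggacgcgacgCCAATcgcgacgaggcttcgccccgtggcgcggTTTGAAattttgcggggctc
KIF20A, chr5:138178992-138179111 (plus strand): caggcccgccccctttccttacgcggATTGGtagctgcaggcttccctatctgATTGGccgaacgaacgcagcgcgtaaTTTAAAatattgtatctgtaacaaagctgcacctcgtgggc
KIF23, chr15:69414229-69414348 (plus strand): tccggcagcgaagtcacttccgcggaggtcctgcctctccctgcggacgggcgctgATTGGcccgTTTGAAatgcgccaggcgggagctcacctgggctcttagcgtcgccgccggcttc
ECT2 (first start), chr3:172750606-172750725 (plus strand): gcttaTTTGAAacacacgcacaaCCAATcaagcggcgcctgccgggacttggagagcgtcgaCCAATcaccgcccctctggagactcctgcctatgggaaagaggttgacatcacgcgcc
ANLN, chr7:36389742-36389861 (plus strand): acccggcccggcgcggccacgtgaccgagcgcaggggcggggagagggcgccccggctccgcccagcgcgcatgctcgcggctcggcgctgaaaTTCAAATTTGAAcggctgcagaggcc

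CHR letters were present in all 10 windows of the 9 genes, against 8424 of the 35116 windows of the whole table (24%). With the 250 bases before the start alone, 8 of the 10 windows held them, against 21.9% of all windows. The CHR began 28 bases before the start in KIF11, 34 in KIF4A, 20 in PRC1, 41 in KIF20A and 55 in KIF23. In ANLN a pair of CHRs on opposite strands adjoined each other 26 and 20 bases before the start. In KIF2C the letters lay across the start itself, and in KIF20B they first began 25 bases after it. The first start of ECT2 had a CHR 115 bases upstream, and the CHR 242 bases before the second start was the same stretch as the CHR 35 bases after the first. CCAAT letters were present in 7 of the 10 windows, against 34.6% of all windows, and were absent from those of KIF2C, ANLN and the second start of ECT2. In all 7 windows with CCAAT letters a CCAAT box lay upstream of the CHR nearest to the start. That CHR lay before the start in KIF11, KIF4A, PRC1, KIF20A and KIF23. It lay after the start in KIF20B and the first window of ECT2. The E2F letters TTTCCCGC and TTTGGCGC, searched on both strands, were found in none of the 10 windows and in 2.27% of all windows. The palindrome TTTAAA was counted once, and no CHR match overlapped with a CCAAT match in the 10 windows. These are matches of letters and not sites of binding.

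Whether NIF changed these transcripts was asked in each population of each line. In SW620 all 10 genes fell under NIF in both populations. In SUM159, 4 fell in ALDHbr cells (KIF20A, ECT2, KIF11 and PRC1) and 1 in ALDHneg cells (KIF20A), and no gene rose in any of the 4 comparisons. KIF20A had the lowest fold change each time. These counts come from fits that did not pair libraries by replicate number. A SUM159 fit that did pair them called 7 genes lower in ALDHbr and 5 in ALDHneg cells. Bulk RNA cannot tell fewer cells in mitosis from less RNA per cell, so that each difference is one of the sorted population as a whole. The sort followed the treatment, and the paper reports a smaller ALDHbr population under NIF. The same gate may therefore hold different cells under NIF and under DMSO, which was not tested. For SUM159 ALDHbr cells under NIF the paper reports G2/M arrest and more polyploid cells. It also reports higher expression of G2/M genes in ALDHbr cells under NIF, a gene set that was not compared here with the 10. All 10 had log2 fold changes below 0 in ALDHbr cells of both lines, a direction opposite to that report. The reason was not tested.

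The test was edgeR's quasi-likelihood test with Benjamini-Hochberg adjustment over all genes tested in a line, and a gene was called at an adjusted p under 0.05. In SW620 ALDHbr cells 10 of 10 were called lower against 21.9% of the 13953 genes tested, and 0 higher against 21.4%. The median log2 fold change was -0.29 for the 10 genes and -0.01 for all genes. In SW620 ALDHneg cells 10 of 10 were called lower against 22.7% of all genes, and 0 higher against 22.3%, with medians of -0.52 and -0.01. In SUM159 ALDHbr cells 4 of 10 were called lower against 2.23% of the 14953 genes tested, and 0 higher against 0.936%, with medians of -0.20 and -0.0029. In SUM159 ALDHneg cells 1 of 10 was called lower against 2.2%, and 0 higher against 1.1%, with medians of -0.14 and 0.0033. At an unadjusted p under 0.05, 7 of the 10 were lower in SUM159 ALDHbr cells and 6 in SUM159 ALDHneg cells, and 0 were higher in either line and population. DESeq2 likewise called 0 of the 10 higher in the 4 comparisons. No share of all genes is given at the unadjusted threshold, so that nothing is read from those counts as particular to the 10.

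The libraries of NIF and DMSO did not overlap in CPM for 8 of the 10 genes in SW620 ALDHbr cells, against 45.1% of all genes. They did not overlap for any of the 10 in SW620 ALDHneg cells, against 63.4%. The counts without overlap were 7 in SUM159 ALDHbr cells, against 23.2%, and 8 in SUM159 ALDHneg cells, against 19.6%, of which KIF4A was in the direction of higher levels under NIF. Same-numbered SUM159 libraries deviated together. A fit with the replicate number as a block called 7 of the 10 lower in ALDHbr cells, against 1131 of the 14953 genes tested. KIF23, RACGAP1 and ANLN were the genes added. With the block 5 were called lower in SUM159 ALDHneg cells, against 1058 of the 14953, with KIF11, PRC1, ECT2 and RACGAP1 added. Without any 1 of the 6 SUM159 ALDHbr libraries the count was 2, and KIF20A and ECT2 kept their calls in each of these fits. Over all genes these fits called 164 to 252 lower, against 333 with every library. Within SUM159 ALDHneg cells the count was 0 without NIF replicate 1 or 3, where 141 and 156 of all genes were called lower. It was 2 without DMSO replicate 2, against 364 of all genes, and 329 with every library. Fewer calls in the 10 thus went with fewer calls over all genes. Within SW620 ALDHneg cells library-size scaling called 3957 of all genes lower and 2578 higher, against 3172 and 3114 with TMM, and still 10 of the 10 lower.

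**Figure D1:**
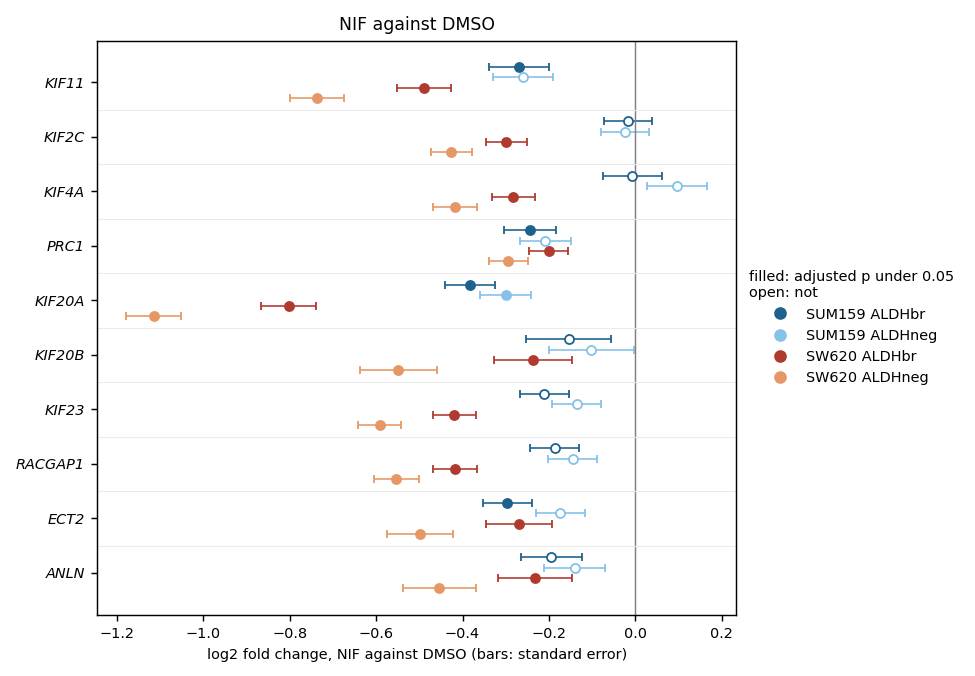
Log2 fold change of NIF against DMSO (horizontal axis, bars are standard errors) of the 10 genes in the 4 sorted populations, with filled points at an adjusted p under 0.05. All SW620 points lie left of 0, from -1.11 to -0.20, and in SUM159 KIF2C and KIF4A lie near 0.

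KIF11 is the plus-end motor that slides antiparallel microtubules apart and so separates the spindle poles. In SUM159 ALDHbr cells its levels were 144, 153 and 164 CPM under DMSO and 128, 127 and 129 CPM under NIF. In ALDHneg cells of SUM159 they were 136, 137 and 159 CPM under DMSO and 115, 126 and 119.99 CPM under NIF. Every NIF library was below every DMSO library in either population, and the log2 fold changes were -0.27 ± 0.07 (SE, adjusted p = 0.0481) in ALDHbr and -0.26 ± 0.07 (adjusted p = 0.0561) in ALDHneg cells. The ALDHbr call was lost without any 1 of the 6 libraries, at adjusted p from 0.0655 to 0.179, and with RLE size factors, another normalisation, at 0.0507. It was kept with the block, and the lowest adjusted p over the 15 alternatives was 0.00132. In ALDHneg cells the block gave an adjusted p of 0.00187. Within SW620 ALDHbr cells the levels were 133, 149.8 and 127 CPM under DMSO and 99.3, 101 and 91.9 CPM under NIF, and KIF11 fell by 28.7% (log2 -0.49 ± 0.06, adjusted p = 2.67e-05). In SW620 ALDHneg cells they were 168, 172 and 162 CPM and 100.1, 99.9 and 103 CPM, with a log2 fold change of -0.74 ± 0.06 (adjusted p = 4.22e-07). Only KIF20A fell further than KIF11 in either SW620 population.

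KIF2C, a kinesin that depolymerises microtubules and frees wrongly attached kinetochores, had the levels 100.3, 107 and 102 CPM under DMSO and 103, 101 and 103 CPM under NIF in SUM159 ALDHbr cells. In SUM159 ALDHneg cells they were 106, 118 and 111 CPM and 105, 110.3 and 114 CPM. DMSO and NIF overlapped in both populations, and the log2 fold changes of -0.02 ± 0.06 (adjusted p = 0.925) and -0.02 ± 0.06 (adjusted p = 0.887) did not pass the test. In SW620 the levels went from 121, 111 and 118 CPM to 95.2, 94.8 and 95.99 CPM in ALDHbr cells. In ALDHneg cells they went from 126, 124 and 123 CPM to 92.8, 94.2 and 92.4 CPM. The 6 NIF libraries lay within 92.4 to 96.0 CPM, below all 6 DMSO libraries, with log2 fold changes of -0.30 ± 0.05 (adjusted p = 0.000176) and -0.43 ± 0.05 (adjusted p = 5.51e-06).

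KIF4A, a chromokinesin that works with PRC1 at the central spindle and stops microtubule growth there, stood at 62.8, 68.7 and 76.7 CPM under DMSO and 67.99, 69.7 and 70.1 CPM under NIF in SUM159 ALDHbr cells. Within SUM159 ALDHneg cells the values were 60.1, 66.5 and 66.6 CPM and 67.5, 69.3 and 70.02 CPM, each NIF library above each DMSO library. Neither log2 fold change passed the test, at -0.01 ± 0.07 (adjusted p = 0.973) and 0.10 ± 0.07 (adjusted p = 0.537). In SW620 ALDHbr cells KIF4A stood at 153, 152 and 155 CPM under DMSO and 120.3, 134 and 125 CPM under NIF. Within SW620 ALDHneg cells it stood at 173, 172 and 166 CPM and 129.6, 126 and 129 CPM. Here, without overlap, it fell by 17.8% in ALDHbr (log2 -0.28 ± 0.05, adjusted p = 0.000440) and fell by 25.1% in ALDHneg cells (log2 -0.42 ± 0.05, adjusted p = 1.15e-05).

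PRC1 cross-links antiparallel microtubules and so builds the central spindle. Its levels in SUM159 ALDHbr cells were 221, 239.9 and 233 CPM under DMSO and 194, 202 and 192 CPM under NIF (log2 -0.24 ± 0.06, adjusted p = 0.0374). In SUM159 ALDHneg cells they were 231, 248 and 255 CPM and 201, 226 and 210.03 CPM (log2 -0.21 ± 0.06, adjusted p = 0.0740, and 0.00272 with the block). The ALDHbr call was lost without any 1 of the 6 libraries, at adjusted p from 0.0651 to 0.121. It was kept with the block, and the lowest adjusted p over the 15 alternatives was 0.000727. Within SW620 ALDHbr cells the levels were 272, 259 and 274 CPM and 233, 236 and 233 CPM, and in SW620 ALDHneg cells 306, 300.1 and 288 CPM and 246, 243 and 245 CPM. Both were falls without overlap, at log2 -0.20 ± 0.04 (adjusted p = 0.00240) and -0.29 ± 0.04 (adjusted p = 0.000103), the smallest of the 10 in either SW620 population.

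KIF20A brings the chromosomal passenger complex from the centromeres to the central spindle. In SUM159 ALDHbr cells it stood at 162, 165 and 164 CPM under DMSO and 129, 121 and 128 CPM under NIF. Within SUM159 ALDHneg cells it stood at 148, 157 and 156 CPM and 117, 136 and 122 CPM. The groups did not overlap, and KIF20A fell by 23.3% in ALDHbr (log2 -0.38 ± 0.06, adjusted p = 0.00188) and fell by 18.8% in ALDHneg cells (log2 -0.30 ± 0.06, adjusted p = 0.0119). The ALDHneg call was lost without NIF replicate 1 (adjusted p = 0.0698) or NIF replicate 3 (adjusted p = 0.0632). In SW620 ALDHbr cells the levels went from 71.1, 79.97 and 78.8 CPM to 47.2, 42.3 and 42.5 CPM. In SW620 ALDHneg cells they went from 102, 101 and 95.3 CPM to 44.2, 46.6 and 47.7 CPM. The 2 sorted populations did not overlap under DMSO and overlapped under NIF. The difference between their NIF responses was not called (log2 0.31 ± 0.09, adjusted p = 0.583). KIF20A fell by 42.6% in ALDHbr (log2 -0.80 ± 0.06, adjusted p = 2.46e-07) and fell by 53.8% in ALDHneg cells (log2 -1.11 ± 0.06, adjusted p = 6.96e-09).

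KIF20B, a relative of KIF20A that is needed late in cytokinesis, overlapped between DMSO and NIF in 3 of the 4 populations. Its levels were 79.9, 79.99 and 92.3 CPM under DMSO and 80.2, 66.1 and 81.00 CPM under NIF in SUM159 ALDHbr cells. In ALDHneg cells of SUM159 they were 92.5, 78.2 and 101 CPM and 84.2, 81.7 and 87.9 CPM. DMSO and NIF overlapped in either population, and the log2 fold changes of -0.15 ± 0.10 (adjusted p = 0.470) and -0.10 ± 0.10 (adjusted p = 0.673) did not pass. Within SW620 ALDHbr cells the levels were 83.3, 104 and 78.04 CPM and 77.3, 78.9 and 69.3 CPM, which also overlapped. The log2 fold change of -0.24 ± 0.09 there (adjusted p = 0.0472) became -0.09 (adjusted p = 0.273) without DMSO replicate 2, the library that stood apart. The call was also lost without NIF replicate 1, 2 or 3, at adjusted p of 0.0836, 0.0555 and 0.151. It was lost as well at adjusted p of 0.0541 with RLE size factors, 0.0501 without a filter on low counts, 0.0729 in the fit of all 24 libraries and 0.150 in a fit of the 2 groups alone, so that the KIF20B call in this population rests on the settings used. Within SW620 ALDHneg cells the levels of 116, 120.4 and 118 CPM and 81.5, 76.5 and 85.2 CPM did not overlap (log2 -0.55 ± 0.09, adjusted p = 0.000187).

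KIF23 and RACGAP1, the motor and the GTPase-activating subunit of centralspindlin, are described together. KIF23 stood at 132, 134 and 137 CPM under DMSO and 118, 109.7 and 122 CPM under NIF in SUM159 ALDHbr cells. RACGAP1 stood at 119.8, 128 and 127 CPM and 108, 113 and 108 CPM in the same libraries. Neither pair overlapped, yet the log2 fold changes of -0.21 ± 0.06 for KIF23 (adjusted p = 0.0580) and -0.19 ± 0.06 for RACGAP1 (adjusted p = 0.0927) did not pass, and had 0.0036 and 0.00991 with the block. In SUM159 ALDHneg cells KIF23 stood at 130.2, 132 and 140.3 CPM and 117, 126 and 125 CPM, and RACGAP1 at 118, 118 and 125 CPM and 103, 116 and 108 CPM. Again the groups did not overlap, at log2 -0.14 ± 0.06 (adjusted p = 0.235) and -0.14 ± 0.06 (adjusted p = 0.201, and 0.0419 with the block).

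In SW620 ALDHbr cells KIF23 went from 145, 149 and 143 CPM under DMSO to 109, 112 and 107 CPM under NIF. RACGAP1 went from 118, 119.98 and 122 CPM to 94.1, 89.8 and 85.6 CPM. KIF23 fell by 25.2% (log2 -0.42 ± 0.05, adjusted p = 1.26e-05) and RACGAP1 fell by 25.2% (log2 -0.42 ± 0.05, adjusted p = 1.66e-05). In SW620 ALDHneg cells KIF23 went from 168, 168 and 157 CPM to 108, 107 and 114 CPM, and RACGAP1 from 142, 141 and 132 CPM to 93.01, 94.4 and 97.00 CPM. Every NIF library was below every DMSO library, and KIF23 fell by 33.6% (log2 -0.59 ± 0.05, adjusted p = 3.64e-07) and RACGAP1 fell by 31.8% (log2 -0.55 ± 0.05, adjusted p = 8.94e-07).

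ECT2, the exchange factor that activates RhoA at the cell's equator, had the levels 151, 158 and 162 CPM under DMSO and 128, 121 and 135 CPM under NIF in SUM159 ALDHbr cells. ECT2 fell by 18.6% (log2 -0.30 ± 0.06, adjusted p = 0.00955), without overlap. Within SUM159 ALDHneg cells the levels of 140.5, 146 and 151 CPM and 124, 135 and 129 CPM did not overlap either, but the log2 fold change of -0.17 ± 0.06 had an adjusted p of 0.121, and of 0.0144 with the block. Within SW620 ALDHbr cells ECT2 stood at 254, 293 and 234 CPM and 229.8, 218 and 201 CPM, with DMSO replicate 2 the highest (log2 -0.27 ± 0.08, adjusted p = 0.0110). A fit of the 2 groups alone gave this comparison an adjusted p of 0.0619. Within SW620 ALDHneg cells the levels were 298, 323 and 316 CPM and 230.1, 212 and 226 CPM, well apart (log2 -0.50 ± 0.08, adjusted p = 0.000110).

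ANLN ties RhoA, actin, myosin and the septins together in the cleavage furrow. Its levels were 321, 348 and 365 CPM under DMSO and 303, 289.7 and 314 CPM under NIF in SUM159 ALDHbr cells. In SUM159 ALDHneg cells they were 368, 360.1 and 422 CPM and 331, 358 and 355 CPM. The NIF libraries were below the DMSO libraries, at log2 -0.19 ± 0.07 (adjusted p = 0.162, and 0.00986 with the block) and -0.14 ± 0.07 (adjusted p = 0.343). In SW620 ALDHbr cells the levels of 213, 254 and 219 CPM and 216, 201 and 167 CPM overlapped, since NIF replicate 1 lay above DMSO replicate 1. The log2 fold change of -0.23 ± 0.08 there (adjusted p = 0.0394) was -0.14 (adjusted p = 0.168) without DMSO replicate 2. The call was also lost without DMSO replicate 3, NIF replicate 2 or NIF replicate 3, at adjusted p of 0.0501, 0.0616 and 0.154, and in a fit of the 2 groups alone, at 0.145. That fit called 7 of the 10 genes lower in SW620 ALDHbr cells, without KIF20B, ECT2 and ANLN. In SW620 ALDHneg cells the levels were 304, 306 and 294 CPM and 224, 213 and 227 CPM, without overlap (log2 -0.45 ± 0.08, adjusted p = 0.000570). Leaving out KIF20B and ANLN, the other 8 genes kept their calls in SW620 ALDHbr cells without DMSO replicate 2.

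Whether the NIF response differed between the lines was tested in 1 fit of all 24 libraries, as the log2 fold change in SW620 minus that in SUM159. In ALDHneg cells the response was lower in SW620 for 8 of the 10 genes, against 10.5% of the 16271 genes tested called lower. The differences ran from -0.81 ± 0.09 for KIF20A (adjusted p = 2.99e-07) and -0.51 ± 0.09 for KIF4A (adjusted p = 0.000104) to -0.32 ± 0.10 for ECT2 (adjusted p = 0.0223) among those called. PRC1 at -0.08 ± 0.07 (adjusted p = 0.520) and ANLN at -0.31 ± 0.11 (adjusted p = 0.0589, and 0.0282 with the replicate block) did not pass. In ALDHbr cells 5 genes had a lower response in SW620, against 10.7% of all genes. They were KIF20A at -0.42 ± 0.09 (adjusted p = 0.00111), KIF2C at -0.28 ± 0.07 (adjusted p = 0.00576), KIF4A at -0.28 ± 0.09 (adjusted p = 0.0212), RACGAP1 at -0.23 ± 0.08 (adjusted p = 0.0281) and KIF23 at -0.21 ± 0.08 (adjusted p = 0.0451). PRC1 and ECT2 differed by 0.04 ± 0.07 and 0.02 ± 0.10, at adjusted p of 0.775 and 0.934.

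KIF20A and KIF2C kept their calls in ALDHbr cells in each of the 12 fits without 1 library. KIF23 lost its call in 11 of these 12 fits, RACGAP1 in 6 and KIF4A in 5. The ALDHbr count was 2 without SUM159 ALDHbr DMSO replicate 1 or SW620 ALDHbr NIF replicate 3. It was 3 without SUM159 ALDHbr NIF replicate 1, 2 or 3, SW620 ALDHbr DMSO replicate 3, or SW620 ALDHbr NIF replicate 1 or 2. The ALDHneg count was 6 to 9 without 1 library. Without filter on low counts the ALDHbr count was 2. In ALDHneg cells library-size scaling called 2335 of all genes lower and 1615 higher, against 1702 and 1939 with TMM, and 9 of the 10.

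Under DMSO the lines differed in their levels of most of these genes, in both directions. KIF20A and ANLN were lower in SW620 than in SUM159, and KIF4A and ECT2 higher. In ALDHbr cells 3 were called lower in SW620, against 41.7% of all genes, and 5 higher, against 39.6%. In ALDHneg cells 2 were called lower, against 42.7%, and 8 higher, against 38.5%. These shares leave most genes called, and library-size scaling moved the median of all genes by -0.15 and -0.17 on the log2 scale. KIF4A was higher by 1.14 ± 0.06 in ALDHbr (adjusted p = 1.19e-14) and 1.40 ± 0.06 in ALDHneg cells (adjusted p = 2.01e-16). ECT2 was higher by 0.73 ± 0.07 (adjusted p = 1.15e-09) and 1.10 ± 0.07 (adjusted p = 4.73e-13). KIF20A differed by -1.10 ± 0.06 (adjusted p = 4.24e-14) and -0.63 ± 0.06 (adjusted p = 1.64e-09), and ANLN by -0.59 ± 0.08 (adjusted p = 4.47e-07) and -0.35 ± 0.08 (adjusted p = 0.000432). KIF11 was called lower in SW620 ALDHbr cells (-0.17 ± 0.07, adjusted p = 0.0216) and higher in SW620 ALDHneg cells (0.22 ± 0.07, adjusted p = 0.00551). The ALDHbr call of KIF11 was lost without SUM159 replicate 3, SW620 replicate 1 or SW620 replicate 3, at adjusted p of 0.0864, 0.0728 and 0.129. Its ALDHneg call was lost with library-size scaling (adjusted p = 0.555) and without SUM159 replicate 1 (adjusted p = 0.0634). PRC1 was higher in both, at 0.21 ± 0.05 and 0.29 ± 0.05. KIF23 at 0.12 ± 0.05 in ALDHbr and KIF2C at 0.16 ± 0.05 in ALDHneg cells turned to -0.03 and -0.008 with library-size scaling, and the KIF23 call was kept in 1 of 12 alternatives.

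The order of the 8 groups followed the line for 4 genes. For KIF20A the 4 SUM159 groups, at means of 125 to 164 CPM, stood above the 4 of SW620, at 43.99 to 99.4 CPM. For KIF4A the 4 SW620 groups, at 126 to 170.2 CPM, stood above those of SUM159, at 64.4 to 69.4 CPM. For ECT2 they stood at 216 to 313 CPM against 128 to 157 CPM. For ANLN the SUM159 groups had the 4 highest means, but the lowest of them, at 302 CPM, overlapped with SW620 ALDHneg DMSO at 301 CPM. SW620 ALDHneg DMSO was the highest group for 8 of the 10 genes, the exceptions being KIF20A and ANLN, which were highest in SUM159 ALDHbr DMSO and SUM159 ALDHneg DMSO. In this top place the libraries overlapped with the next group only for KIF11. The lowest groups were mostly those of NIF. KIF20A, KIF11, KIF23, KIF20B, RACGAP1 and ANLN were lowest in SW620 ALDHbr NIF, which overlapped with the next group for each of them. KIF2C was lowest in SW620 ALDHneg NIF, PRC1 and ECT2 in SUM159 ALDHbr NIF, and KIF4A in SUM159 ALDHneg DMSO.

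Levels of different genes can be compared only per length of transcript. Divided by the length of the canonical transcript in GENCODE, which need not be the annotation used for counting, PRC1 and ANLN led in SUM159 ALDHbr cells under DMSO with 75.3 ± 3.15 and 72.8 ± 4.75 CPM per kilobase (SD, n = 3). KIF4A at 15.8 ± 1.59 and KIF20B at 13.1 ± 1.11 CPM per kilobase were the lowest there, and they did not overlap with the other 8. Within SW620 ALDHbr cells under DMSO PRC1 led with 87.3 ± 2.62 CPM per kilobase, before ECT2 with 62.9 ± 7.25. KIF20A, the third of 10 in SUM159 at 52.9 ± 0.477 CPM per kilobase, was the ninth in SW620 at 24.8 ± 1.56. KIF23 and RACGAP1, the partners in centralspindlin, stood at 39.8 ± 0.852 and 38.6 ± 0.641 CPM per kilobase in SW620 and at 36.7 ± 0.773 and 40.1 ± 1.37 in SUM159.

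The sorted populations were compared within each line and treatment. These comparisons share libraries with those of NIF, and their values are not independent of them. In SW620 under DMSO 8 of the 10 genes were lower in ALDHbr than in ALDHneg cells, against 5.86% of the 13953 genes tested, with a median log2 difference of -0.24 for the 10 and 0.01 for all genes. No library of ALDHbr overlapped with ALDHneg for any of the 10, against 28.4% of all genes. The differences were -0.42 ± 0.09 for KIF20B (adjusted p = 0.00959), -0.40 ± 0.08 for ANLN (adjusted p = 0.00861), -0.38 ± 0.06 for KIF20A (adjusted p = 0.00159) and -0.30 ± 0.06 for KIF11 (adjusted p = 0.00861). They were smaller for ECT2 (-0.27 ± 0.08), RACGAP1 (-0.21 ± 0.05), KIF23 (-0.18 ± 0.05) and PRC1 (-0.15 ± 0.04), at adjusted p from 0.0199 to 0.0412. KIF4A at -0.15 ± 0.05 (adjusted p = 0.0627) and KIF2C at -0.09 ± 0.05 (adjusted p = 0.203) did not pass. The count was 9 without DMSO replicate 2 of ALDHbr, the library that stood apart, against 2861 of 14147 genes called lower in that fit. It was 7 without DMSO replicate 3 of ALDHneg, against 409 of 14189. It was 4 without DMSO replicate 1 or 3 of ALDHbr or replicate 1 or 2 of ALDHneg. The fits giving 4 called 380 to 454 of all genes lower, against 817 with every library. The count was 3 in a fit of the 2 groups alone, against 393 of 13549 genes. KIF20A, KIF20B and ANLN kept their calls there. These counts thus moved along with those over all genes.

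Under NIF 0 of the 10 genes differed between SW620 ALDHbr and ALDHneg cells by edgeR, against 3.26% of all genes called lower. No gene of the 10 reached an unadjusted p under 0.05, and DESeq2 also called 0. The median log2 difference was -0.06. ANLN had the lowest value, -0.18 ± 0.08 (adjusted p = 0.242), and KIF2C the highest, 0.04 ± 0.05 (adjusted p = 0.683). Library-size scaling called 367 of all genes lower and 584 higher in this comparison, against 455 and 476 with TMM. The test of the difference itself, the NIF response of ALDHbr minus that of ALDHneg cells, called 0 of the 10, against 0.00717% of all genes in either direction. All 10 values were positive, from 0.09 ± 0.06 for PRC1 to 0.31 ± 0.09 for KIF20A, and 4 had an unadjusted p under 0.05, but the lowest adjusted p was 0.583. DESeq2 called 0 of the 10 as well.

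In SUM159 at most 1 of the 10 genes was called between the populations. Under DMSO edgeR called 0 of 10 lower in ALDHbr cells, against 12.3% of the 14953 genes tested, 1 gene (ANLN) had an unadjusted p under 0.05 and DESeq2 called 0. With the replicate block ANLN was called, at a log2 difference of -0.15 (adjusted p = 0.0151). Under NIF ANLN alone was lower in ALDHbr cells, at -0.21 ± 0.07 (adjusted p = 0.0464), against 12% of all genes. This call was lost without any 1 of the 6 libraries, at adjusted p from 0.0546 to 0.155, and the block called KIF20B and PRC1 besides. Given library by library, ANLN stood at 303, 289.7 and 314 CPM in ALDHbr and 331, 358 and 355 CPM in ALDHneg cells under NIF, without overlap. The NIF response of ALDHbr minus that of ALDHneg cells was called for 0 of 10 by edgeR, against 0% of all genes, for 0 at an unadjusted p under 0.05 and for 0 by DESeq2. The values ran from -0.12 ± 0.08 for ECT2 to 0.01 ± 0.08 for KIF2C.

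**Figure D2:**
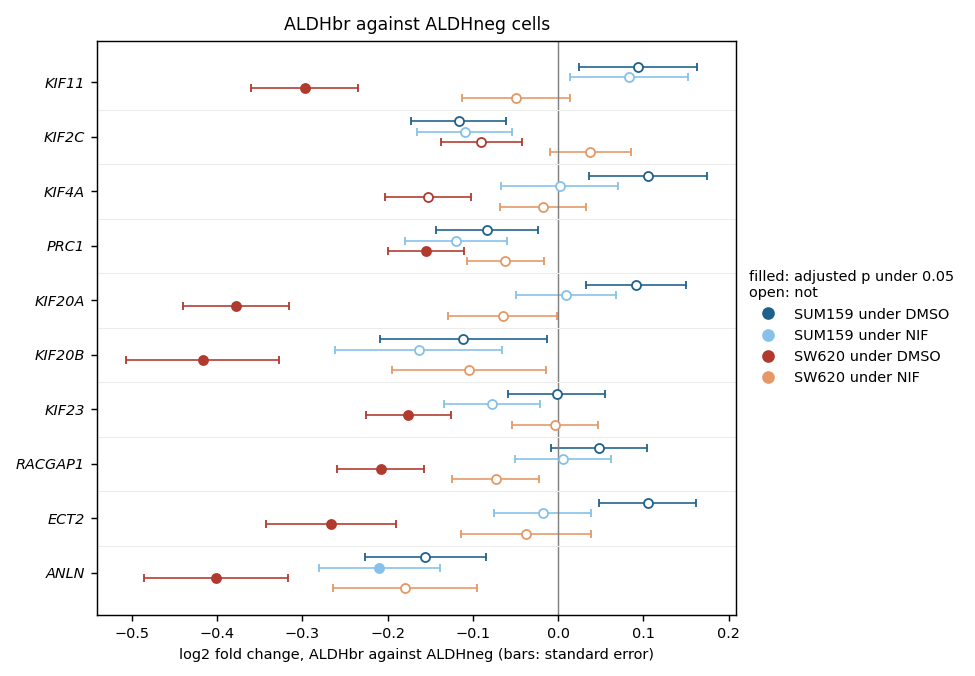
Log2 fold change of ALDHbr against ALDHneg cells (horizontal axis, bars are standard errors) of the 10 genes under DMSO and under NIF in each line, with filled points at an adjusted p under 0.05. The SW620 points under DMSO lie between -0.42 and -0.09, and those under NIF between -0.18 and 0.04.

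Genes that work with these 10 were read from 6 lists. In SUM159 edgeR called 2.23% of all genes lower and 0.936% higher in ALDHbr cells, and 2.2% and 1.1% in ALDHneg cells. A count of 0 in a list is near these shares and is not read as particular to it. Nothing is read from list counts at an unadjusted p under 0.05, for which no share of all genes is given. Of the chromosomal passenger complex, the kinase module that KIF20A carries, 4 of 4 fell in both SW620 populations, against 21.9% of all genes in ALDHbr and 22.7% in ALDHneg cells. The lowest was BIRC5, the survivin subunit, at -0.81 ± 0.07 in ALDHbr (adjusted p = 6.73e-07) and -0.87 ± 0.07 in ALDHneg cells (adjusted p = 2.53e-07). The highest was INCENP, its scaffold, at -0.24 ± 0.07 (adjusted p = 0.00990) and -0.37 ± 0.07 (adjusted p = 0.000415). In SUM159 ALDHbr cells INCENP passed at -0.25 ± 0.06 (adjusted p = 0.0269), and in SUM159 ALDHneg cells edgeR called 0 of the 4, 1 had an unadjusted p under 0.05 and DESeq2 called 0. The medians of the list were -0.50 and -0.53 in SW620 and -0.11 and -0.11 in SUM159, ALDHbr first.

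Of 10 other mitotic kinesins 9 were tested in SW620, where 5 fell in ALDHbr cells, against 21.9% of all genes, and 7 in ALDHneg cells, against 22.7%. In SUM159, where 8 were tested, edgeR called 1 lower in ALDHbr cells, against 2.23% of all genes, and 2 in ALDHneg cells, against 2.2%. At an unadjusted p under 0.05 the SUM159 counts called in either direction were 5 and 4, and DESeq2 called 4 and 2. CENPE, a kinetochore motor, was lowest in SW620, at -0.58 ± 0.12 (adjusted p = 0.00120) and -0.94 ± 0.12 (adjusted p = 1.56e-05). KIFC1, a minus-end motor, was the highest of those called, at -0.37 ± 0.06 (adjusted p = 0.000182) and -0.37 ± 0.06 (adjusted p = 0.000168). In SUM159 KIF14, which recruits citron kinase to the midbody, fell in ALDHbr cells (-0.40 ± 0.10, adjusted p = 0.0432). KIF15, a motor that backs up KIF11, and KIFC1 fell in SUM159 ALDHneg cells (-0.31 ± 0.07, adjusted p = 0.0188, and -0.29 ± 0.07, adjusted p = 0.0330). The medians were -0.37 and -0.48 in SW620 and -0.20 and -0.20 in SUM159.

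Of 16 genes of the RhoA pathway and contractile ring, 6 fell in SW620 ALDHbr cells, against 21.9% of all genes, and 0 rose, against 21.4%. Among ALDHneg cells of SW620 8 fell, against 22.7%, and 1 rose, against 22.3%. The medians were -0.13 and -0.16, and nothing is read from these counts as particular to the list. SEPTIN6, a septin filament subunit at or below 1.24 ± 0.165 CPM in the SW620 group means, was lowest at -0.92 ± 0.27 (adjusted p = 0.0126) and -1.28 ± 0.26 (adjusted p = 0.00119). SEPTIN2 at -0.13 ± 0.04 (adjusted p = 0.0290) was the highest of those called in ALDHbr, and ACTB, cytoplasmic actin, at 0.22 ± 0.07 (adjusted p = 0.0205) in ALDHneg cells. In SUM159 edgeR called 0 of the 16 in either population, at medians of -0.0035 and -0.01. The shares of all genes called lower were 2.23% in ALDHbr and 2.2% in ALDHneg cells. Of the 16, 2 in ALDHbr and 1 in ALDHneg cells had an unadjusted p under 0.05, and DESeq2 called 0.

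Of 13 midbody and abscission genes CEP55, the midbody platform, was the only one to fall in SW620, at -0.28 ± 0.05 (adjusted p = 0.000337) and -0.52 ± 0.05 (adjusted p = 8.33e-07), against 21.9% and 22.7% of all genes. In ALDHbr cells 4 rose, against 21.4% of all genes, and in ALDHneg cells 5 rose, against 22.3%, counts too near these shares to be read as particular to the list. CHMP1B, an ESCRT-III subunit, rose furthest, by 0.56 ± 0.06 (adjusted p = 9.01e-06) and 0.70 ± 0.06 (adjusted p = 8.06e-07). The medians of this list were 0.14 and 0.16 in SW620, above 0, and those of the 10 genes below 0. In SUM159 VPS4B, an ATPase that takes ESCRT-III apart, passed in ALDHbr cells (-0.24 ± 0.06, adjusted p = 0.0269). The share of all genes called lower there was 2.23%. Within SUM159 ALDHneg cells edgeR called 0 of the 13, against 2.2% of all genes called lower. Of the 13, 4 had an unadjusted p under 0.05 and DESeq2 called 1.

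The regulators that bind CHR promoters were read as well. Of 11 MuvB, DREAM and FOXM1 genes 5 fell in SW620 ALDHbr cells, against 21.9% of all genes, and 1 rose, against 21.4%. Among ALDHneg cells 6 fell, against 22.7%, and 1 rose, against 22.3%. TFDP1, the partner of E2F proteins, was lowest in ALDHbr cells at -0.45 ± 0.04 (adjusted p = 1.21e-06). MYBL2, which encodes B-MYB, was lowest in ALDHneg cells at -0.50 ± 0.06 (adjusted p = 1.91e-05). LIN37, a MuvB subunit, rose by 0.40 ± 0.09 (adjusted p = 0.00244) and 0.36 ± 0.09 (adjusted p = 0.00481). In SUM159 edgeR called 0 of the 11 in either population, against 2.23% of all genes lower in ALDHbr and 2.2% in ALDHneg cells. Of the 11, 2 in ALDHbr and 1 in ALDHneg cells had an unadjusted p under 0.05, and DESeq2 called 0.

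Of 8 genes tied to arrest after failed division or to the endocycle, 4 fell in each SW620 population, against 21.9% of all genes in ALDHbr and 22.7% in ALDHneg cells. In each 2 rose, against 21.4% and 22.3%, which is near the share of all genes. CDKN1A, the CDK inhibitor p21, rose furthest, from 25.3, 28.8 and 30.4 CPM to 103, 104 and 111 CPM in ALDHbr cells. In ALDHneg cells it rose from 27.2, 27.8 and 32.8 CPM to 129, 135 and 127 CPM. The NIF libraries were all above the DMSO libraries, at log2 1.91 ± 0.08 (adjusted p = 4.11e-10) and 2.15 ± 0.08 (adjusted p = 1.06e-10). E2F8, an atypical repressor of the E2F family, was lowest in ALDHbr cells (-0.35 ± 0.10, adjusted p = 0.0143). In SUM159 CDKN1A had log2 fold changes of 0.16 ± 0.08 (adjusted p = 0.359) and 0.30 ± 0.09 (adjusted p = 0.0722). E2F7, the relative of E2F8, alone passed there, in ALDHbr cells, at -0.49 ± 0.07 (adjusted p = 0.000865). The share of all genes called lower there was 2.23%. In ALDHneg cells of SUM159 edgeR called 0 of the 8, against 2.2% of all genes called lower. Of the 8, 4 had an unadjusted p under 0.05 and DESeq2 called 1.

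CHR letters were read in the promoters of these lists too. They were in 7 of 11 windows of the other mitotic kinesins (63.6%), 2 of 4 of the passenger complex (50%) and 6 of 16 of the MuvB, DREAM and FOXM1 genes (37.5%). They were in 3 of 34 windows of the RhoA and ring genes (8.82%), 2 of 12 of the midbody and abscission genes (16.7%) and 1 of 8 of the arrest and endocycle genes (12.5%). Windows of different starts of a gene can overlap and are not independent.

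The 10 genes were also set against each other over the 12 libraries of a line, which share treatment and sort. Pearson's r between 2 of them, on log2 CPM, had a median of 0.94 over the 45 pairs in SW620, from 0.70 for KIF2C with ANLN to 0.99 for KIF20A with RACGAP1. In SUM159 the median was 0.53, from -0.17 for KIF4A with PRC1 to 0.96 for KIF20A with ECT2. Among 12770 genes tested in both lines, those most like the mean of the 10, by the lower of the r in SUM159 and SW620, were GTSE1 (0.95), TPX2 (0.93), DLGAP5 (0.91), DEPDC1 (0.91) and HMMR (0.91). With Spearman's correlation 2 of these 5, DEPDC1 and HMMR, remained among the first 5. These are descriptions over libraries that share the treatment contrast.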

How the data were processed

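Total RNA of 24 libraries, sorted by the ALDEFLUOR assay and prepared with a stranded kit, was sequenced from 3 independent biological replicates per group. The authors deposited raw counts per gene, and the submitters' processing notes name FastQC, STAR and GRCh38, while the counting tool and annotation were not given in the sources used here. The deposited counts were analysed with edgeR 4.0.16 (R 4.3.3, limma 3.58.1): genes were kept by filterByExpr, scaled by TMM and tested by the quasi-likelihood F-test with Benjamini-Hochberg adjustment at 0.05. Comparisons within a line were fitted to its 12 libraries, and those between lines to all 24. Adjusted p-values cover all genes tested. The alternatives were RLE and library-size scaling, no filter, at least 10 counts in every library, DESeq2 1.42.0, other sets of libraries, a minimum log2 fold change of 1, a replicate block and leaving out each library. The pipeline was tested on simulated data.

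The 10 genes and the lists were chosen with earlier results of these data known. Named besides the 10 were, for each list and NIF comparison, the called genes with the lowest and the highest fold change, and the 5 genes most like the 10. Deviations from the group means correlated for 18 of 18 same-number pairs of SUM159 libraries (r 0.125 to 0.451), and for 0 of 36 others above 0.1. The main fits nevertheless used no pairing, and the replicate block was fitted only as an alternative. Replicates of a group differed by at least 1.95 times the chi-square that sampling alone gives per gene. Promoter sequences and gene positions are from RefSeq (GRCh38.p14). Depth was 30253187 to 43127948 counts per library.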

Additional observations from a re-analysis of the deposited data

Results flagged for a closer look

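The response to NIF differed between the lines for 5 of the 10 genes in ALDHbr cells, against 10.7% of all genes called lower. The test was of the difference itself (edgeR's quasi-likelihood test with Benjamini-Hochberg adjustment). In the 12 fits without 1 library this count was 2 to 4. The log2 response of SW620 minus that of SUM159 was -0.42 for KIF20A, -0.28 for KIF2C, -0.28 for KIF4A, -0.23 for RACGAP1 and -0.21 for KIF23. The KIF23 call was lost in 11 of the 12 fits without 1 library, that of RACGAP1 in 6 and that of KIF4A in 5. In ALDHneg cells the response differed for 8 genes, against 10.5% of all genes called lower, and for 6 to 9 in the fits without 1 library. The values there were -0.81 for KIF20A, -0.51 for KIF4A, -0.47 for KIF11, -0.45 for KIF23, -0.44 for KIF20B, -0.40 for RACGAP1, -0.40 for KIF2C and -0.32 for ECT2. The lines also differ in tissue of origin and in what the ALDHneg gate held. They may differ in NIF concentration, which the paper lists for each cell line model, and in batch. The part of these in the difference cannot be told apart.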

How the results depend on the processing

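No direction of the 10 genes' NIF responses that passed the test turned under any alternative. Library-size scaling turned the line difference of KIF23 in ALDHbr cells to -0.035 and of KIF2C in ALDHneg cells to -0.0080, and called 2 and 4 genes higher in SW620 in place of 5 and 8. With a minimum absolute log2 fold change of 1 the counts fell to 1 in SW620 ALDHneg cells under NIF and to 0 in every other comparison within a line or of responses. Of the line levels this minimum left 1 lower and 1 higher in ALDHbr and 0 lower and 2 higher in ALDHneg cells. The count in SUM159 ALDHbr cells under NIF was 3 with RLE, without KIF11, 5 with at least 10 counts or all 24 libraries, 6 with DESeq2 and 7 with the replicate block. In SW620 ALDHbr cells under NIF it was 9 with RLE, without a filter, with all 24 libraries or with the replicate block (adjusted p of KIF20B with the block 0.0527), and 7 in the fit of both groups alone. In SUM159 ALDHneg cells under NIF it was 2 with library-size scaling, without a filter or with at least 10 counts, 3 in the fit of all 24 libraries, 4 with DESeq2, 5 with the replicate block and 0 in the fit of both groups alone. Between SUM159 populations it was 1 under DMSO with library-size scaling or the replicate block, and under NIF 0 with RLE or all 24 libraries, 2 with library-size scaling and 3 with the replicate block. Between SW620 populations under DMSO it was 5 with the replicate block and 3 in the fit of both groups alone. The response difference in ALDHbr cells was called for 2 without a filter.

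Leaving out 1 library gave 2 to 2 in SUM159 ALDHbr and 0 to 2 in ALDHneg cells under NIF, and 0 to 0 between SUM159 populations under DMSO and under NIF. It gave 8 to 10 in SW620 ALDHbr and 10 to 10 in ALDHneg cells under NIF, and 4 to 9 between SW620 populations under DMSO. It gave 2 to 4 and 6 to 9 for the response differences in ALDHbr and ALDHneg cells. For line levels it gave 2 to 3 lower and 4 to 5 higher in ALDHbr, and 2 to 2 lower and 6 to 8 higher in ALDHneg cells. Leaving out 1 library also moved the calls over all genes. These were 164 to 252 lower in SUM159 ALDHbr and 141 to 364 in SUM159 ALDHneg cells under NIF. Between SW620 populations under DMSO they were 380 to 2861 lower. Over all genes the replicate block called 1131 lower and 863 higher in SUM159 ALDHbr cells under NIF (333 and 140 without it) and 1058 and 912 in ALDHneg cells (329 and 164). DESeq2 called 534 and 341, and 528 and 356, the fit of all 24 libraries 465 and 260, and 466 and 277, and the fit of both groups alone 229 and 63 in ALDHneg cells. The replicate block called 2716 lower and 2672 higher between SUM159 populations under DMSO (1833 and 1599 without it) and 2739 and 2531 under NIF (1793 and 1488). The minimum of 1 left 61 lower and 7 higher in SUM159 ALDHbr, 56 and 8 in SUM159 ALDHneg, 263 and 534 in SW620 ALDHbr and 339 and 602 in SW620 ALDHneg cells under NIF. The fit of both groups alone called 393 lower and 336 higher between SW620 populations under DMSO (817 and 760). In SW620 the replicate numbers did not pair the libraries (1 of 18 same-number pairs above 0.1). No paired fit was made for the line levels, since a number does not tie libraries of different lines. The causes were not tested.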
